A study of Caenorhabditis elegans with 2 samples.

Results

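The 9 genes described here encode the high mobility group (HMG) proteins of Caenorhabditis elegans that carry the symbol hmg, namely hmg-1.1, hmg-1.2, hmg-3, hmg-4, hmg-5, hmg-6, hmg-11, hmg-12 and hmg-20. They were taken by symbol from the Ensembl annotation of 19985 protein-coding genes (assembly WBcel235, the same as ce11), and the measurement is where the HMG-11 protein itself lay along them. HMG proteins are small chromosomal proteins that bind DNA by its shape more than by its letters. Those with an HMG box bend the double helix from the minor groove. Those of the HMGA type, to which HMG-11 and HMG-12 belong, use short AT hooks that lie in the minor groove of A/T-rich stretches. The set thus joins the gene of the mapped protein, the gene of its closest relative by type, and the genes of the HMG box proteins.

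HMG-11 was mapped by chromatin immunoprecipitation and sequencing (ChIP-seq) in whole third-stage (L3) hermaphrodite larvae, 52 h after first-stage larvae had been synchronised by starvation. The strain was TH184, unc-119(ed3) III; ddIs101, which stably expresses HMG-11 with a C-terminal GFP-FLAG tag, and an anti-GFP antibody was used. All animals carried the same alleles. There were 2 biological replicates of 1 group, and no untagged or input library was analysed here. Reads from the transgenic and the endogenous copy of hmg-11 cannot be told apart in these lists.

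The data are lists of 30000 candidate regions, peaks and background together, 1 list per replicate and 1 from the reads of both combined (called pooled here). A further list of 4037 peaks had passed the irreproducible discovery rate (IDR), which keeps regions that rank alike in separate lists. Each region has a summit and a signal value from the authors, whose scale was not given in the sources used here, and it served to rank regions within a list (rank 1 is the strongest). The 4037 IDR peaks were the 4037 strongest pooled regions, with signals of 67.9 to 529. Numbers of reads are unknown, anything weaker than the last listed region is unseen, and with 2 replicates of 1 group no test was made. A region was counted at a gene when its summit lay from 5 kb upstream of the gene start to the gene end, so a region can be counted at several genes.

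The DNA under the summits of 4 member peaks is shown first, because base composition is what an AT hook is known to read. A stretch upstream of hmg-11, which has no summit, is set beside them. Each line spans 50 bp to the left and right of the summit (RefSeq sequence of ce11, strand of the gene), with runs of 5 or more A or T in capitals. For hmg-11, which had no listed region, the stretch is centred 380 bp upstream of the start, the median distance of the 9 member peaks. The stretches lie at chrII:14250319-14250419 (hmg-1.1, plus strand), chrIII:6280247-6280347 (hmg-1.2, plus strand), chrIII:7381926-7382026 (hmg-4, minus strand), chrII:11916013-11916113 (hmg-12, plus strand) and chrII:4672655-4672755 (hmg-11, plus strand), and none overlaps an annotated exon.
hmg-1.1: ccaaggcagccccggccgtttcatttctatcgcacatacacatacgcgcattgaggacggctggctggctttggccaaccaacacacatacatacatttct
hmg-1.2: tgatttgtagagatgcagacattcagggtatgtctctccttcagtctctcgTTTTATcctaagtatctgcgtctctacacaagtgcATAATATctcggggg
hmg-4: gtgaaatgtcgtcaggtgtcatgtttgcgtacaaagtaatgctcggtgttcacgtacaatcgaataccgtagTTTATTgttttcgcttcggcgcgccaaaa
hmg-12: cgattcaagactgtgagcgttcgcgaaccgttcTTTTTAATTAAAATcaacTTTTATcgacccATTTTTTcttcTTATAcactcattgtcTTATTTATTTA
hmg-11: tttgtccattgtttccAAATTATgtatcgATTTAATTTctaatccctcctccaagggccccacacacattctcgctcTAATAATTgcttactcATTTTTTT
The hmg-1.1 stretch holds no such run, hmg-1.2 holds 2, hmg-4 holds 1 and hmg-12 holds 5. The hmg-11 stretch, at which nothing was listed, holds 4. A+T content was 47.5% at hmg-1.1, 56.4% at hmg-1.2, 55.4% at hmg-4 and 68.3% at hmg-12, and 64.4% at hmg-11. The strongest peak of the 4 was that of hmg-1.2, and the most A/T-rich stretch was that of hmg-12. These are 4 of the 9 member peaks, and whether signal goes with A+T content was not tested. The member peak with the lowest A+T content, 32.7% at hmg-6, is not among them.

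Peaks were found at 6 of the 9 genes, hmg-1.1, hmg-1.2, hmg-4, hmg-6, hmg-12 and hmg-20, and no pooled region was listed at the other 3, hmg-3, hmg-5 and hmg-11. Over all protein-coding genes, 28.0% had a peak by the same rule (5586 of 19985) and 52.3% had any pooled region. A further 24.3% of all protein-coding genes had a listed region but no peak, a state in which no member was found. In the narrower window from 1000 bp upstream to 200 bp downstream of the start, the same 6 genes had a peak, and 13.9% of all protein-coding genes did. The members' windows had a median length of 6579 bp, against 7026 bp for all protein-coding genes. The genes were listed with earlier results of these data known, so these counts are a description and no test of the list was made.

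**Figure D1:**
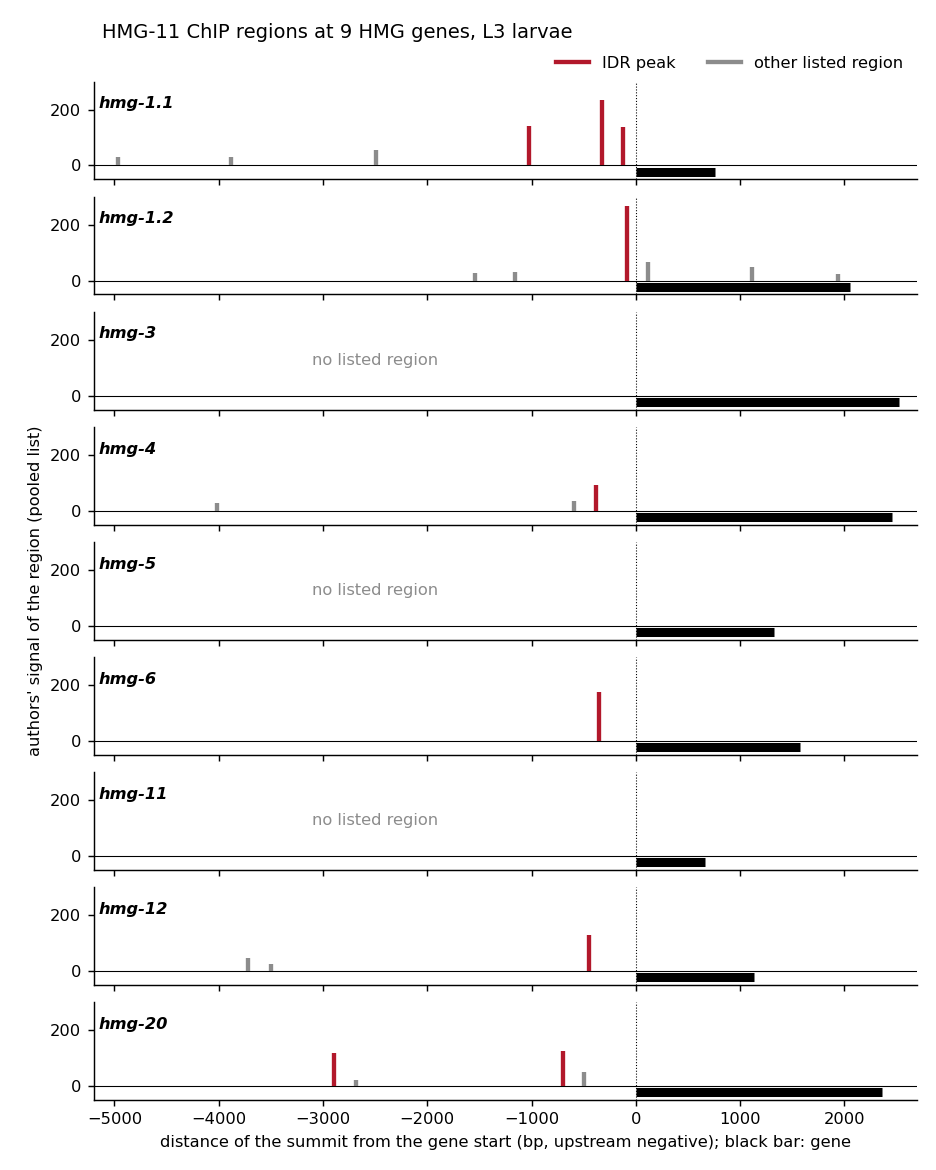
Signal (the authors' scale, vertical) of each pooled region by the distance of its summit from the gene start in bp (horizontal, upstream negative), 1 panel for each of the 9 genes, with the gene as a black bar. Red lines are the 9 IDR peaks and grey lines the 14 other listed regions; the peaks lie upstream of the starts, and hmg-3, hmg-5 and hmg-11 hold none.

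The strongest binding in the set was at the genes of the HMGB-like proteins, HMG box proteins that bend DNA with little preference for sequence. At hmg-1.2 (WBGene00001972, chromosome III, 6280380 to 6282438, plus strand), the peak at 6280069 to 6280524 had a pooled signal of 269 and ranked 81. It had a signal of 102 (rank 156) in replicate 1 and 168 (rank 79) in replicate 2. The pooled summit lay 83 bp upstream of the start, and no other gene start of any class lay within 1000 bp. Of the 10448 protein-coding genes with a region in the window, 140 (1.34%) had one as strong or stronger. This was the highest rank among the members in all 3 lists.

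The remaining hmg-1.2 regions were far weaker. A region whose summit lay 118 bp inside the gene, in an exon, had a signal of 66.0 and ranked 4213, just below the weakest peak at 67.9, and was the strongest member region outside the IDR list. It ranked 2750 in replicate 1, while in replicate 2 the only region overlapping it was the one at the start. Another region, with its summit in an intron 1119 bp from the start, had a signal of 50.3. The other 3 had signals of 22.8 to 31.1 and no overlapping region in replicate 1. The gene hmg-1.2 thus had 1 dominant region at its start and weak ones over the gene and upstream.

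At hmg-1.1 (WBGene00001971, chromosome II, 14250695 to 14251450, plus strand) binding was spread over several summits. The strongest, 326 bp upstream of the start (14250301 to 14250444), had a signal of 235 and ranked 171, with 100.8 (rank 170) in replicate 1 and 131 (rank 253) in replicate 2. Another peak 1028 bp upstream had a signal of 142 and ranked 1027. Here the replicates differed most among the member peaks, with a signal of 77.3 (rank 541) in replicate 1 and 62.7 (rank 2071) in replicate 2. The peak 127 bp upstream had a signal of 137 and ranked 1129, with 63.7 (rank 999) in replicate 1 and 77.1 (rank 1324) in replicate 2. The other 3 regions, 2487, 3886 and 4967 bp upstream, had signals of 56.4, 29.7 and 28.9 and were not peaks. A window with 3 or more peaks was found at 1.69% of all protein-coding genes, and at hmg-1.1 alone among the members. The peaks 326 and 127 bp upstream are 199 bp apart, the smallest spacing between neighbouring summits anywhere in the pooled list, and whether they are separate sites was not tested.

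The hmg-1.1 upstream region also holds annotated noncoding RNAs. The summit 1028 bp upstream lay in an exon of Y48B6A.23 and the summit 127 bp upstream in exons of Y48B6A.18 and Y48B6A.21, all ncRNA genes, so these peaks cannot be assigned to hmg-1.1 alone. The strongest summit was intergenic and lay 135 bp upstream of the start of Y48B6A.18. Just past the end of hmg-1.1, and so outside the window, lay 2 more peaks, 169 bp beyond the gene end with a signal of 187 (rank 444) and 393 bp beyond it with a signal of 103 (rank 2137). These peaks, named after their values were seen, were among the 4037 strongest regions of each replicate. The next coding start to them was that of Y54G11A.2, 738 and 514 bp away. Counting them, 5 peaks flanked a gene of 756 bp.

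The FACT complex loosens nucleosomes ahead of polymerases, and its HMG box subunit SSRP1 is encoded in the worm by hmg-3 and hmg-4, per the RefSeq product names. Of the pair, hmg-4 had a peak and hmg-3 had no listed region. At hmg-4 (WBGene00001974, chromosome III, 7379143 to 7381596, minus strand) a peak at 7381748 to 7382203 had a signal of 90.4 and ranked 2669, the weakest of the member peaks. It had a signal of 40.4 (rank 2710) in replicate 1 and 50.9 (rank 2912) in replicate 2. The pooled summit lay 380 bp upstream of hmg-4 and 139 bp upstream of T20B12.3, a gene on the opposite strand that runs the other way from hmg-4 across a gap of 518 bp. In replicate 2 the summit lay 90 bp closer to T20B12.3, 49 bp from its start. The other pooled regions at hmg-4, 596 and 4012 bp upstream, had signals of 34.2 and 28.0, and their summits lay in an intron of T20B12.3 and an exon of tbp-1.

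At hmg-3 (WBGene00001973, chromosome I, 5815609 to 5818132, minus strand) no region was listed in the pooled list or in either replicate. The coding neighbour upstream is nhr-2, on the same strand, ending 341 bp before hmg-3 begins. The nearest pooled regions were a peak 8527 bp upstream, with a signal of 74.4 (rank 3562), near the start of C32F10.8, and a peak 10605 bp downstream, with a signal of 129 (rank 1302), 182 bp from the start of lin-35. The gene lin-35 encodes the worm retinoblastoma protein and its 3′ end overlaps that of hmg-3. The stretch without a summit around the start of hmg-3 was 19.1 kb, beside a median of 20.1 kb over protein-coding genes.

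HMG-5 is the worm counterpart of TFAM, the HMG box protein that packages mitochondrial DNA. At hmg-5 (WBGene00001975, chromosome IV, 7644895 to 7646219, minus strand) no pooled region was listed. Replicate 2 had a weak region 4811 bp upstream, with a signal of 20.2 and a rank of 13182, and its summit lay 429 bp from the start of cima-1. Replicate 1 had none in the window, and its nearest region upstream was 5368 bp away with a rank of 22249. The gene nrde-4, on the same strand, ends 100 bp upstream of hmg-5. The stretch without a pooled summit around the start was 21.6 kb, again close to the median of 20.1 kb.

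The remaining HMG box genes, hmg-6 and hmg-20, each had a peak closer to their own start than to that of any other coding gene. At hmg-6 (WBGene00009827, chromosome I, 14059312 to 14060890, plus strand) 1 region was listed in each of the 3 lists, at 14058732 to 14059187 in the pooled list. Its signal was 176 and its rank 553, with 78.9 (rank 502) in replicate 1 and 91.5 (rank 841) in replicate 2. The summit lay 352 bp upstream of hmg-6 and 50 bp upstream of the snoRNA gene F47G4.9 on the opposite strand. Which of the genes this peak belongs to cannot be told from position.

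The gene hmg-20 (WBGene00012209, chromosome I, 12535314 to 12537671, plus strand) shares its name with HMG20 of mammals, a partner of the LSD1 demethylase and CoREST. It had 2 peaks in its window. The peak at 12534392 to 12534847, 694 bp upstream, had a signal of 127 and ranked 1368, with 53.8 (rank 1525) in replicate 1 and 72.6 (rank 1508) in replicate 2. Like the hmg-1.2 peak, it had no other annotated gene start within 1000 bp. The other, 2893 bp upstream, had a signal of 116 and ranked 1686, with 54.4 (rank 1490) in replicate 1 and 65.6 (rank 1872) in replicate 2. It lay between pri-2, which encodes a DNA primase subunit, and W02D9.2, 286 and 321 bp upstream of their starts, in the gap between these divergent genes. A weaker region 493 bp upstream of hmg-20 had a pooled signal of 50.7, and its rank was 24776 in replicate 1 but 4242 in replicate 2. The remaining region, 2684 bp upstream, had a signal of 19.6.

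Of the AT-hook genes, hmg-12 had a peak and hmg-11 had no listed region. At hmg-12 (WBGene00001977, chromosome II, 11916513 to 11917643, plus strand) the peak at 11915835 to 11916290 had a signal of 127 and ranked 1364. It had a signal of 51.5 (rank 1700) in replicate 1 and 74.6 (rank 1419) in replicate 2, and its summit agreed to within 1 bp between the lists. It lay 450 bp upstream of hmg-12 and 211 bp upstream of vps-15, which encodes a regulator of a phosphatidylinositol kinase and starts on the opposite strand. Another 2 regions, 3715 and 3500 bp upstream, lay in introns of vps-15, with signals of 47.1 and 25.6. The peak is therefore nearer to vps-15 than to hmg-12. Past the end of hmg-12, and outside the window, 2 pooled regions lay 493 and 692 bp beyond the gene end, with signals of 52.7 (rank 5986) and 32.8 (rank 13809), and neither was a peak. Their summits lay in an exon of lin-29, a gene of the opposite strand whose end overlaps that of hmg-12. The replicates differed at the stronger of these regions, where the region with the nearest summit ranked 4046 in replicate 1 and 11681 in replicate 2.

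At hmg-11 (WBGene00001976, chromosome II, 4673085 to 4673746, plus strand), the gene of the protein that was precipitated, no region was listed in the pooled list or in either replicate. Within the gene span and 5 kb upstream there was thus no summit with a signal at or above that of the last listed region, which was 18.9 in the pooled list, 9.58 in replicate 1 and 11.1 in replicate 2. The nearest pooled summits were 50522 bp upstream (signal 26.8, rank 19159) and 21979 bp downstream (signal 28.3, rank 17632), and neither was a peak. The nearest peaks were 69881 bp upstream and 28472 bp downstream. The stretch without a pooled summit was 72.5 kb, and 16.2% of protein-coding genes started in one as wide or wider. It was 86.7 kb in replicate 1 and 71.1 kb in replicate 2. The annotation places hmg-11 inside the span of clec-140, a C-type lectin gene of the same strand that starts 25 bp further upstream. How the signal treats the added copies of hmg-11 in this strain was not tested.

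**Figure D2:**
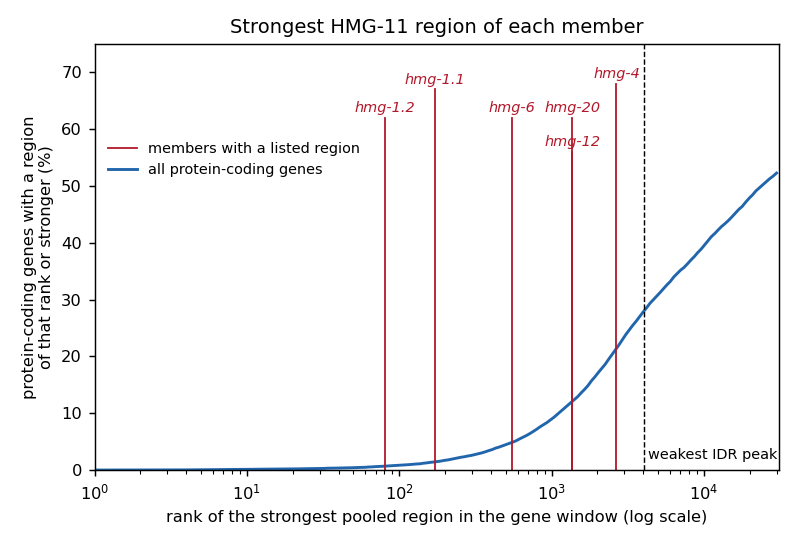
Share of protein-coding genes (vertical, %) whose strongest pooled region in the gene window has a given rank or a stronger one (horizontal, log scale, 1 is the strongest). Red lines mark the strongest region of the 6 members with a listed region, from rank 81 at hmg-1.2 to rank 2669 at hmg-4; hmg-12 and hmg-20 nearly coincide at ranks 1364 and 1368, and the dashed line is the weakest IDR peak.

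Ranked by their strongest region, the members came in the order hmg-1.2 (rank 81), hmg-1.1 (171), hmg-6 (553), hmg-12 (1364), hmg-20 (1368) and hmg-4 (2669). The places of hmg-1.2 and hmg-1.1 were the same in each replicate, at 156 and 170 in replicate 1 and at 79 and 253 in replicate 2. The order of hmg-12 and hmg-20 was not fixed by the replicates, since hmg-20 ranked higher in replicate 1 and hmg-12 in replicate 2. A region as strong or stronger was found at 2.76% of protein-coding genes with a region for hmg-1.1, 9.35% for hmg-6, 23.1% for hmg-12 and hmg-20, and 41.0% for hmg-4.

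All 9 member peaks lay upstream of the member's start, at 83 to 2893 bp with a median of 380 bp. Each window reached 5 kb upstream but only to the gene end downstream, so most of it lay upstream. Of the 9 peaks, 7 were in intergenic sequence, as were 63.8% of all IDR peaks. Measured to the nearest coding start of any gene, member peaks had a median distance of -286 bp and all IDR peaks of -195 bp (upstream is negative). Regardless of side, the median was 286 bp for member peaks and 589 bp for all IDR peaks. Member peaks were taken from gene windows, while all IDR peaks were not. By the signed distance to the nearest coding start, which uses no gene window, 72.5% of all IDR peaks lay upstream. For 6 member peaks the nearest coding start was the member's own, although the hmg-1.1 and hmg-6 peaks lay nearer to the start of a noncoding RNA gene. For the other 3, at hmg-4, hmg-12 and the distal peak of hmg-20, it was that of T20B12.3, vps-15 and pri-2. When a summit counted only for its nearest coding start, 4 of 9 members kept a peak, hmg-1.1, hmg-1.2, hmg-6 and hmg-20, and 14.9% of all protein-coding genes had one. Of the 23 pooled regions at the members, 9 were peaks (39.1%), while 13.5% of all pooled regions were. Neighbouring summits lay within 250 bp of each other in 6 of 17 adjacent pairs in the member windows, so the regions of a window are not independent. Along whole chromosomes the share was 15.0% of all adjacent pairs. These shares are not alike, since both summits of a member pair had to lie in the same window, while other pairs had no such limit.

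**Figure D3:**
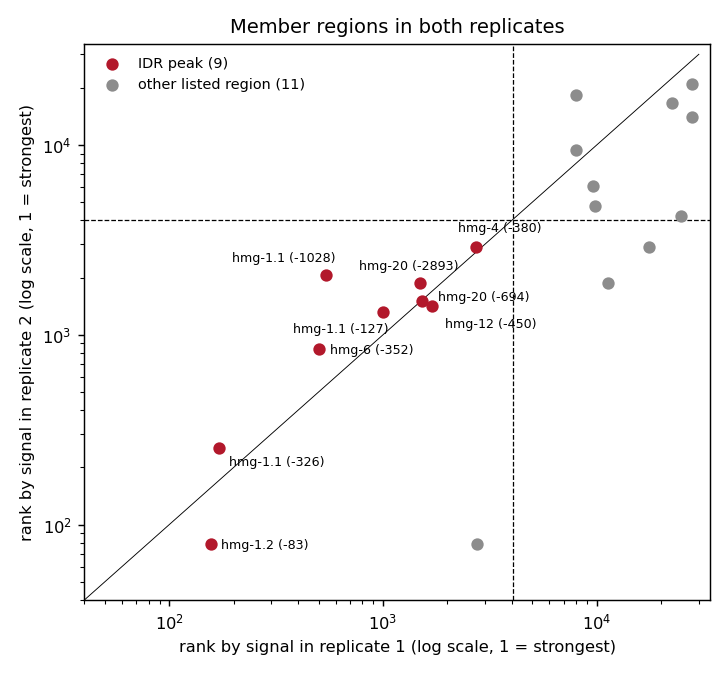
Rank by signal in replicate 1 (horizontal) and in replicate 2 (vertical), both on log scales with 1 the strongest, for the 20 pooled member regions with an overlapping region in both replicates. Red points are the 9 IDR peaks, labelled by gene and summit distance from its start in bp, all of them inside the dashed lines at rank 4037; the grey point at rank 79 in replicate 2 is the hmg-1.2 region inside the gene, matched there to the region at the start.

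All 9 member peaks were listed in both replicates and were among the 4037 strongest regions of each, when the overlapping region with the nearest summit was taken as the match. Among all IDR peaks 71.2% met that condition, a share that is not matched for strength. Of the 9 member peaks, 8 were among the 2018 strongest IDR peaks. IDR keeps regions that rank alike in separate lists, so such agreement may be partly set by how the peaks were chosen. The 4037 strongest regions of replicate 1 held 10 summits in the member windows and those of replicate 2 held 9. The additional one in replicate 1 is the hmg-1.2 region inside the gene, at rank 2750, which had no region of its own in replicate 2. The 2 ranks of a peak differed by a median factor of 1.33 over the member peaks. Over all IDR peaks listed in both replicates the factor was 1.62, and these factors were not matched for strength. Among the member peaks the ranks differed most at the hmg-1.1 peak 1028 bp upstream. Summits of member peaks shifted from the pooled position by a median of 4 bp in replicate 1 and 1 bp in replicate 2, and by at most 17 and 90 bp. Of the 14 member regions that were not peaks, 11 were listed in replicate 1 and 14 in replicate 2, and 11 in both (78.6%), beside 68.2% of all pooled regions that were not peaks. Overlap does not make these matches unique, since a weak region next to a peak can match the replicate region of that peak.

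Base composition varied widely among the member peaks. The A+T content within 50 bp of the summit had a median of 52.5% over the 9 member peaks (SD 10.3 across peaks, which are not replicates), with a range of 32.7% at hmg-6 to 68.3% at hmg-12. The median over all 4037 IDR peaks was also 52.5% (quartiles 47.5% and 58.4%), while the other 25963 pooled regions had a median of 63.4% and the 6 nuclear chromosomes 64.6%. At hmg-20 the values were 46.5% for the peak 694 bp upstream and 63.4% for the peak at pri-2. At hmg-1.1 they were 47.5%, 49.5% and 52.5% for the summits 326, 127 and 1028 bp upstream. Of the member peaks, that of hmg-12 alone exceeded the A+T content of the genome. Over the 1000 bp upstream of the start, A+T content was 53.7% at hmg-1.1 and 63.1% to 68.0% at the other 8 members, with 64.2% at hmg-11, 65.9% at hmg-3 and 68.0% at hmg-5, and the median over protein-coding genes was 65.7%.

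**Figure D4:**
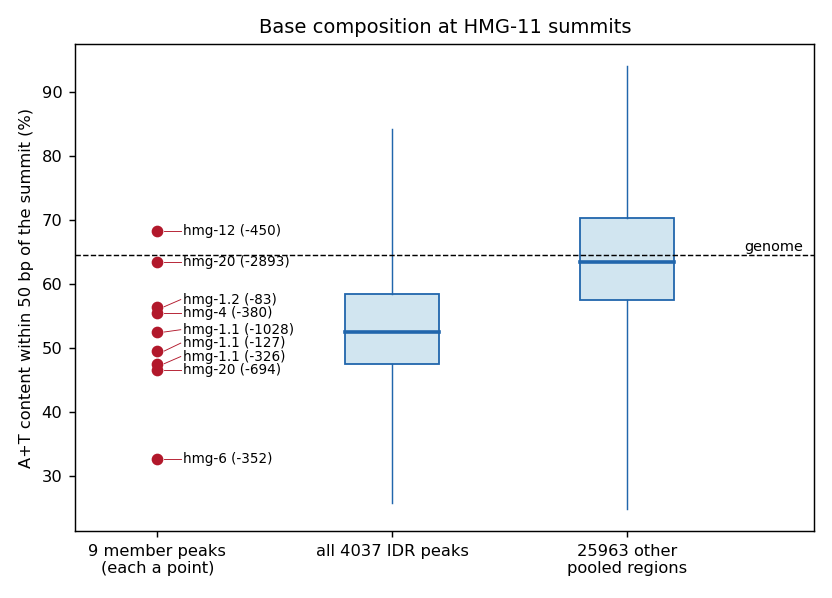
A+T content (vertical, %) within 50 bp of the summit, for the 9 member peaks as points labelled by gene and summit distance in bp, and for all IDR peaks and the other pooled regions as boxes (quartiles, median line, whiskers to the lowest and highest). The member median of 52.5% equals that of all IDR peaks, and hmg-12 alone lies above the genome value, drawn dashed.

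Short sequence elements at the member summits were counted on both strands of the same stretches. The element AATT, a favoured type of AT-hook site, occurred in 2 of 9 member peaks, at hmg-12 and at the pri-2 peak of hmg-20. It occurred in 44.2% of all IDR peaks and in 73.5% of the other pooled regions. A run of 5 A, written AAAAA, occurred in 3 member peaks, in 51.1% of all IDR peaks and in 73.7% of the other regions. The element GAGAG occurred in 4 member peaks, the hmg-1.1 summit 127 bp upstream and those of hmg-1.2, hmg-6 and the hmg-20 peak 694 bp upstream. It occurred in 47.7% of all IDR peaks and in 17.7% of the other regions. In the hmg-1.2 stretch it reads as the reverse complement, ctctc. Runs of A or T reached 14 bp at hmg-12, the longest among the members, beside a median of 6 bp over all IDR peaks and 9 bp over the other regions. These shares were not adjusted for base composition and are a description.

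Genes that work with the members, or carry the same domains, were looked up by the same window, in lists written with earlier results of these data known. Against 28.0% of all protein-coding genes, peaks were found at 10 of 11 genes in a list of FACT, other histone chaperones and elongation factors. These included spt-16, the partner of SSRP1 in FACT and named here for that role, whose peak 274 bp upstream had a signal of 92.2, close to the 90.4 of hmg-4. The strongest regions of that list were at emb-5 (signal 210, nearest to acy-1) and at lin-53 and rba-1 (signal 218), where lin-53 and rba-1 share 1 region that lies nearest to nra-2. The next was at nap-1, a nucleosome assembly protein, with a signal of 129 and a summit 185 bp upstream. At spt-5 the strongest region had a signal of 102 and lay nearest to bre-5. The count of 10 thus includes genes whose strongest region lay nearer to another coding start.

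A list of LSD1 and CoREST genes together with spr-2, spr-3, spr-4 and hda-1 had peaks at 8 of 9. For this list and those that follow, the share over all protein-coding genes was again 28.0%. The gene without a peak was spr-1, whose strongest region had a signal of 55.4. The strongest signals were at lsd-1 (158), amx-1 (156), rcor-1 (134) and spr-5 (118). The nearest coding starts to 3 of these summits were those of nfya-1, dpy-27 and eif-3.J. The rcor-1 summit was nearest to its own start, 410 bp upstream. Other HMG box genes had peaks at 3 of 8, namely pbrm-1 (363, nearest to C26C6.8) and swsn-3 (223), which encode chromatin remodeller subunits, and pop-1 (72.9), the TCF factor of Wnt signalling. The next region of that list, at sox-2, had a signal of 56.1 and was not a peak. AT-hook genes named attf or athp had peaks at 4 of 8, attf-3 (181), attf-2 (163, nearest to F09G2.2), athp-1 (98.0) and attf-5 (97.0).

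Linker histone genes had peaks at 3 of 9, his-24 (112), hil-3 (111) and hil-1 (68.7), and the other 6 had no listed region. Genes of mitochondrial DNA maintenance, the process of hmg-5, had peaks at 2 of 5, mtss-1 (178), which encodes the single-stranded DNA binding protein, and tfbm-1 (79.8), whose summit was nearest to guk-1. The other 3, polg-1, rpom-1 and twnk-1, had listed regions with signals of 52.7, 47.0 and 33.2. Beside the 28.0% of all protein-coding genes with a peak, the 3 of 9 of the linker histone genes is close to the general share. The shares of these lists cover few genes each, and no test was made of them.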

How the data were processed

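ChIP-seq of GFP-tagged HMG-11 in whole L3 larvae was analysed from 4 peak lists on ce11. Per the labels and the file headers, the authors made candidate regions from each replicate and from both together, against a control, and applied IDR. Aligner and caller names were not given in the sources used here. For every region, the deposited signal is the authors' value, on an unstated scale. The lists on ce10 were not used here. Summits were taken from the deposited offset, in bp within each region. Genes and exons came from Ensembl release 115 and sequence from RefSeq (both WBcel235), and every region lay within its chromosome. Windows, ranks, base composition and short elements were computed with Python 3.11.15, pandas 2.3.3 and numpy 2.4.6, and the steps were tested on planted regions. The members and the lists of related genes were chosen with earlier results of these data known. Named genes were all members, genes with a start nearer to a member peak, and the 4 strongest of each list of related genes (all of a list with under 8). Genes that neighbour or overlap a member, or lie nearest to another region described, were also named outside this rule. These were named after their values were seen, as were spt-16, spt-5, spr-1, spr-2, spr-3, spr-4 and hda-1. The symbols bbx-1, attf-1 and exog-1 had no match. Regions are not replicates, so no p-value is given. Alternatives were each replicate alone, the 2018 strongest peaks, other windows, nearest starts, stricter overlaps and other sequence lengths.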

Additional observations from a re-analysis of the deposited data

How the results depend on the processing

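The 6 members with a peak were the same when the 4037 strongest regions of either replicate alone stood in for the IDR peaks, with 2 kb upstream, and with 1000 bp upstream to 200 bp downstream of the start. Peak summits at the members numbered 9 to 10 and listed regions 22 to 24 with either replicate alone. With the 2018 strongest peaks hmg-4 was lost (5 members, and 3408 protein-coding genes in place of 5586). With nearest starts hmg-4 and hmg-12 were lost (4 members, 2968 protein-coding genes). With 10 kb upstream hmg-3 and hmg-5 were added (8 members), while 7501 protein-coding genes (37.5%) had a peak, in place of 28.0%. Protein-coding genes with a peak numbered 5450 with replicate 1 alone and 5568 with replicate 2 alone. They numbered 4069 (20.4%) with 2 kb upstream and 2778 (13.9%) in the window of 1000 bp upstream to 200 bp downstream. Listed regions at the members numbered 15 with 2 kb upstream, 41 with 10 kb and 10 in that narrow window, in place of 23. With overlap of at least 50% of both regions, 8 of the 9 member peaks were among the strongest of both replicates; the other is the 144 bp region at hmg-1.1. The median A+T content of member peaks ran from 49.0% in the shortest window to 54.8% in the longest. No paired analysis was possible because there is 1 group. Depth is unknown, so a gene without a listed region may hold binding below the list.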
